A study of Mus musculus with 24 samples.

Results

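The Slc25 family of mitochondrial solute carriers was followed in mouse liver 20 weeks after weight-loss surgery. Its members were taken by name, as every gene of the deposited normalized table whose symbol starts with Slc25a, which gave 43 of 14995 genes, and their counts were read from the raw table by Ensembl ID. Messenger RNA was counted in 24 libraries, 8 for each of 3 groups. RYGB mice had Roux-en-Y gastric bypass, an operation that joins a small stomach pouch to a lower stretch of intestine. WM mice were held to the weight of the RYGB mice by calorie restriction, and Sham mice had a sham operation. The title of the series calls the mice obese, and the sources used here do not give strain, age, sex, diet or any operation in WM mice. Livers were frozen, and 3′-end libraries of messenger RNA were read for 50 bp from 1 side.

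Slc25 carriers are small proteins of the inner mitochondrial membrane that exchange metabolites, nucleotides, phosphate, cofactors and metal ions between the cytosol and the matrix. In the liver they connect urea synthesis, gluconeogenesis, fatty acid oxidation, heme synthesis and ATP export to enzymes on the other side of that membrane. They are made in the cytosol and brought in by the TOM pore, small TIM chaperones and the TIM22 complex.

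Log2 fold changes of the family were centred near those of all genes, and a few carriers for nucleotides, vitamins, glycine, phosphate and oxoglutarate differed from Sham. Slc25a33, a carrier of pyrimidine nucleotides, and Slc25a38, a glycine carrier needed for heme synthesis, were higher after both RYGB and WM (log2 fold changes 0.93 ± 0.18 and 0.81 ± 0.18 in RYGB, 1.18 ± 0.18 and 1.18 ± 0.18 in WM, ± SE, n = 8 each). Slc25a11, which trades oxoglutarate for malate, was higher after both as well (0.36 ± 0.12 and 0.55 ± 0.12), and Slc25a32, a folate and FAD carrier, was lower after both (-1.19 ± 0.28 and -0.84 ± 0.27). A correction for transcript length and GC content ended both calls of Slc25a11 and the call of Slc25a32 in WM. In RYGB Slc25a11 kept its call in 6 of 11 other processing settings. Slc25a13, Slc25a15 and Slc25a20, abundant carriers of aspartate and glutamate, of ornithine and citrulline and of acylcarnitines, did not pass the test.

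Levels are CPM, counts scaled to a common library size by TMM. A log2 fold change is fitted by edgeR and given ± its standard error, with a quasi-likelihood p that carries a Benjamini-Hochberg adjustment across the 13121 tested genes, and a member is called at an adjusted p below 0.05. Libraries summed to 14002193 to 19958019 counts in RYGB, 14208021 to 22766612 in WM and 13659647 to 17391377 in Sham. Transcripts of pancreatic acinar cells, without Cela1, reached 3056 CPM in RYGB 18, 3025 CPM in RYGB 19 and 1369 CPM in Sham 17 and at most 26.1 CPM in the other libraries. Carrier calls that change without these 3 libraries, a setting chosen after seeing the data, are given beside the carrier. Summed hepatocyte markers (9 of 10 in the table) had medians of 159168 CPM in RYGB, 120874 CPM in WM and 73639 CPM in Sham. Stellate cell and fibroblast markers (10 of 10) had medians of 319 CPM in RYGB, 288 CPM in WM and 580.2 CPM in Sham, with ranges of 271 to 390 CPM in RYGB, 202 to 390 CPM in WM and 421 to 814 CPM in Sham. The part of these cell types in the carrier results was not tested, and in whole liver fewer cells of a type and less RNA per cell cannot be told apart.

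Promoters of the 2 carriers with the smallest p after both treatments are shown because these transcripts moved together. Each runs from 250 bases before to 50 after the RefSeq gene start in GRCm38.p6, read 5′ to 3′ on the gene's strand. Slc25a33 lies on the minus strand at chr4:149774218-149774517 and Slc25a38 on the plus strand at chr9:120110132-120110431. The genes themselves span chr4:149744036-149774277 (ENSMUSG00000028982) and chr9:120110374-120124504 (ENSMUSG00000032519) in GENCODE M21 (GRCm38). Capitals mark the E-box CACGTG in Slc25a33 and the ETS motif CCGGAAG in Slc25a38.
Slc25a33: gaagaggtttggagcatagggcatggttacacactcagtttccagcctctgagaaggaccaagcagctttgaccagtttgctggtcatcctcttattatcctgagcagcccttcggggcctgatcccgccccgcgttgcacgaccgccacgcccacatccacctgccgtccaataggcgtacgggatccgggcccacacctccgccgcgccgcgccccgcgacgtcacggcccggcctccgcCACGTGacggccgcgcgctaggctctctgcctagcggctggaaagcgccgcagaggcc
Slc25a38: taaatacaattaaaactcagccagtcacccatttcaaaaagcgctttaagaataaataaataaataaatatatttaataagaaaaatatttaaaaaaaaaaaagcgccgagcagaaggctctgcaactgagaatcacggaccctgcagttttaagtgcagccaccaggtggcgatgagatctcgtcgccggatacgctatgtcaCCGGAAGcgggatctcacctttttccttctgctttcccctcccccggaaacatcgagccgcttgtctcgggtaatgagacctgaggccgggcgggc
Both strands were searched. CACGTG stood in 7.15% and CCGGAAG in 8.86% of 32851 RefSeq promoters of this length. Among the 44 promoters of 34 members they stood in 8 and 6, which belong to 7 and 6 members. The CRE TGACGTCA, in 1.79% of promoters, was in 2 of the 44 member promoters, those of Slc25a25 and Slc25a36. The E-box and the ETS motif do not overlap each other in these windows, and neither promoter held a match to the motif of the other.

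Slc25 transcripts were unequal in level. With about 1 fragment per transcript in 3′-end libraries, CPM were compared between genes without division by length. The family summed to a median of 3218 CPM in RYGB (2503 to 4032), 3082 CPM in WM (2737 to 4525) and 3243 CPM in Sham (2683 to 4013), and these ranges overlap. Slc25a3, Slc25a47, Slc25a39, Slc25a13 and Slc25a15 were the 5 most abundant members in every group and held 64.8% of the sum in RYGB, 66.0% in WM and 64.1% in Sham. Slc25a47 led in WM and Sham and Slc25a3 led in RYGB. Members with a mean of at least 10 CPM numbered 26 in RYGB, 25 in WM and 24 in Sham. The median coefficient of variation of a member across 8 libraries was 31.7% in RYGB, 39.0% in WM and 29.4% in Sham. Its lowest value was 7.40% in RYGB, for Slc25a11. Slc25a27, Slc25a30, Slc25a31, Slc25a35 and Slc25a43 averaged under 1 CPM in every group and were not tested, so that 38 members of 13121 tested genes remain.

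**Figure D1:**
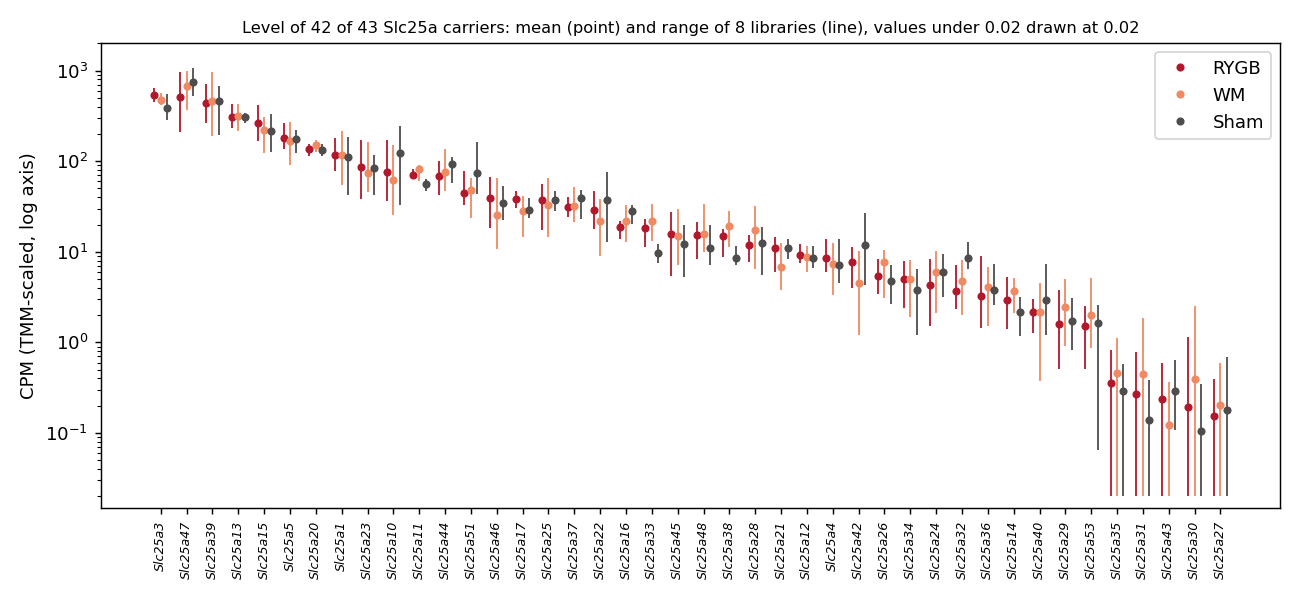
CPM of 42 of the 43 Slc25 members on a log axis, ordered by mean level in RYGB, with RYGB, WM and Sham side by side; points are means and lines run from the lowest to the highest of 8 libraries. Slc25a3 and Slc25a47 stand highest and 5 members under 1 CPM, and in most members the 3 lines overlap.

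Against Sham, 4 of 38 tested members were higher and 3 lower in RYGB, which is 10.5% and 7.89% of them. Of all tested genes 12.7% were higher and 11% lower in that comparison, so the members' shares lie near the background. The small gap was not tested. In WM against Sham 6 members were higher and 3 lower, 15.8% and 7.89%, with a background of 16.5% and 15%. Both comparisons use the same 8 Sham libraries. The median log2 fold change of the tested members was 0.02 in RYGB and 0.01 in WM, beside -0.01 and -0.01 over all genes. With library totals in place of TMM the median of all genes moves by -0.35 in RYGB and -0.33 in WM, and the members' calls become 1 higher and 8 lower in RYGB and 2 higher and 9 lower in WM. The calls lost in this way were Slc25a3, Slc25a11 and Slc25a38 in RYGB and included Slc25a11, Slc25a14 and Slc25a26 in WM. Gained as lower were Slc25a10, Slc25a37, Slc25a42, Slc25a44 and Slc25a47 in RYGB. In WM the gained members were Slc25a10, Slc25a16, Slc25a22, Slc25a37, Slc25a44 and Slc25a51. Over all genes that scaling gave 754 higher and 3534 lower calls in RYGB (1666 and 1443 with TMM) and 1049 and 3637 in WM (2161 and 1964 with TMM). Without the 3 libraries with acinar transcripts 2 members were higher and 4 lower in RYGB, and 5 were higher and 4 lower in WM.

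**Figure D2:**
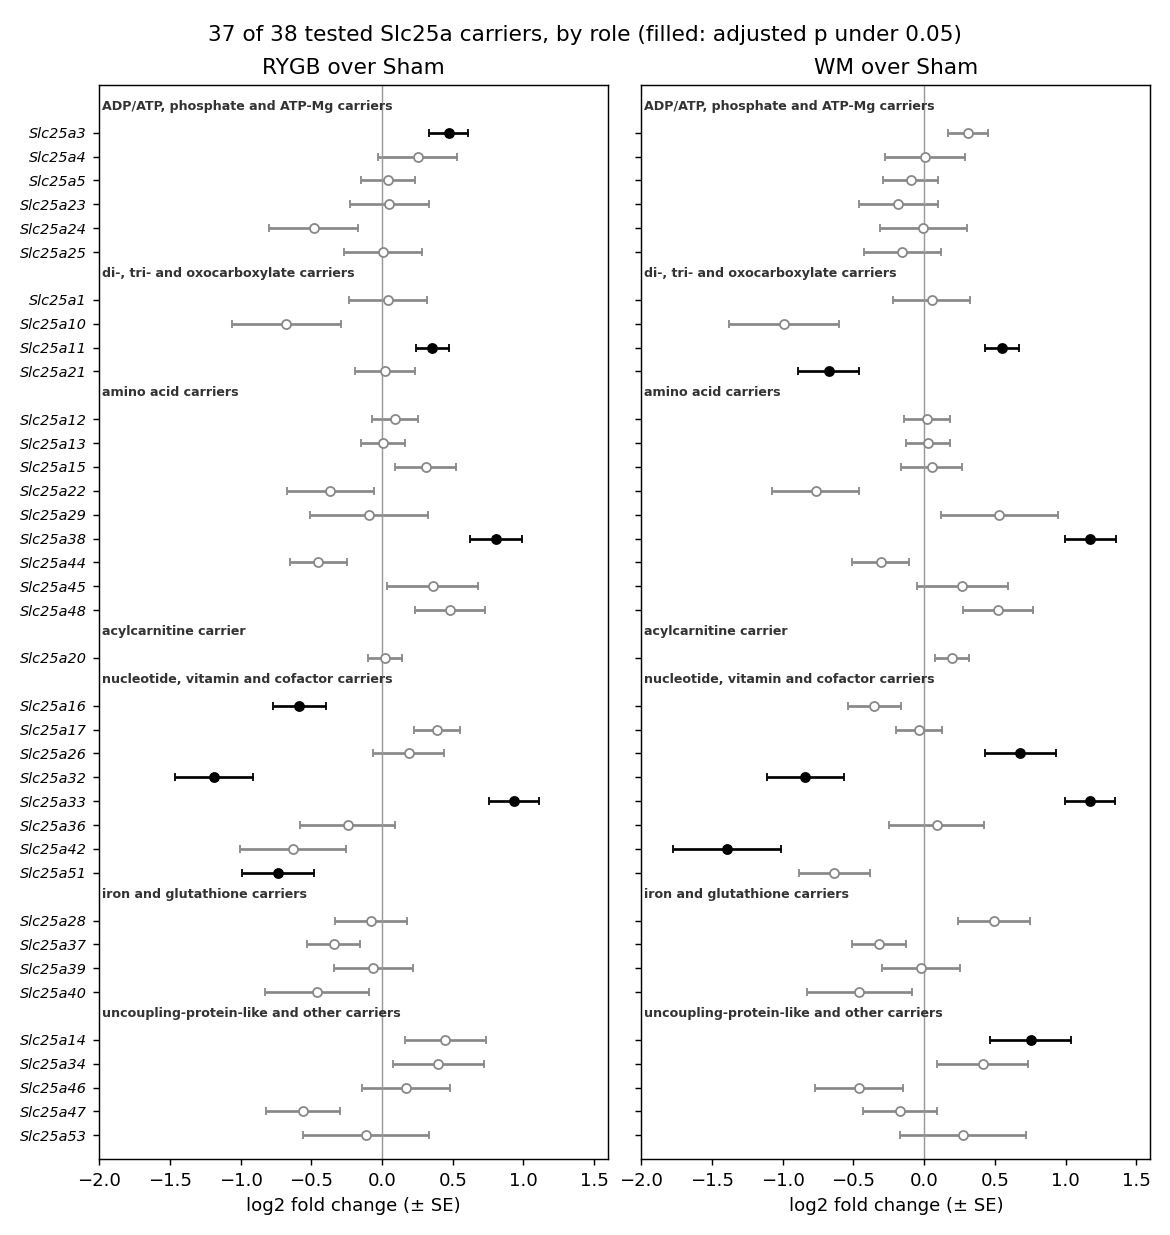
Log2 fold change of 37 of the 38 tested carriers in RYGB over Sham (left) and WM over Sham (right), grouped by role, with bars of 1 standard error; filled points have an adjusted p under 0.05. In the group of nucleotide, vitamin and cofactor carriers, 4 of 8 points are filled on the left and 4 of 8 on the right. Of all tested genes 12.7% were higher and 11% lower in RYGB, and 16.5% and 15% in WM.

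Of 9 carriers of nucleotides, vitamins and cofactors, 1 was higher and 3 lower in RYGB, and 3 were higher and 2 lower in WM. Of all tested genes 12.7% were higher and 11% lower in RYGB, and 16.5% and 15% in WM. Whether this small group departs from these shares was not tested. Slc25a33 had a lowest, median and highest value of 11.3, 18.9 and 23.1 CPM in RYGB, 13.1, 20.1 and 33.5 CPM in WM and 7.58, 9.36 and 12.3 CPM in Sham. Every WM library lay above every Sham library, which 3.15% of tested genes showed, and 7 of 8 RYGB libraries did so, all but RYGB 19. Adjusted p was 0.000297 in RYGB and 1.17e-05 in WM, a fold of 1.91 and 2.26 over Sham. Slc25a36, the other pyrimidine nucleotide carrier, averaged 3.21 ± 2.39 CPM in RYGB, 4.05 ± 1.74 CPM in WM and 3.80 ± 1.58 CPM in Sham (SD, n = 8 each) and was not called in either comparison.

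Slc25a32 had a lowest, median and highest value of 2.33, 3.13 and 7.11 CPM in RYGB, 2.02, 5.38 and 8.09 CPM in WM and 6.53, 7.81 and 13.0 CPM in Sham. All 8 RYGB libraries were below the Sham median and 7 of 8 below every Sham library, all but RYGB 10, and 7 of 8 WM libraries were below the Sham median. Adjusted p by edgeR was 0.00226 in RYGB and 0.0197 in WM. Slc25a32 is among the longer members (longest transcript 5905 bases, against 1887 in Slc25a33 and 1791 in Slc25a38). Each gene's log2 CPM was centred on its mean over the 24 libraries and regressed on log2 transcript length across genes. The slope was 0.0919 to 0.249 in the Sham libraries and below 0 in 7 of 8 RYGB and 7 of 8 WM libraries. Because of the centring these slopes compare libraries with each other and do not show how CPM depends on length within a library. After a correction for length and GC content Slc25a32 was at -0.83 in RYGB (adjusted p = 0.0144) and no longer called in WM (-0.47, adjusted p = 0.153), and without Sham 6 the WM call was lost as well (-0.73, adjusted p = 0.0505).

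Slc25a16, linked to coenzyme A in mitochondria, had a lowest, median and highest value of 14.0, 18.8 and 22.1 CPM in RYGB, 12.9, 20.3 and 33.1 CPM in WM and 20.2, 30.3 and 33.3 CPM in Sham. It fell in RYGB (-0.58 ± 0.19, adjusted p = 0.0221), where all 8 libraries were below the Sham median, and was not called in WM (-0.35 ± 0.19, adjusted p = 0.15). Without the 3 libraries with acinar transcripts the RYGB value was -0.54 (adjusted p = 0.0882). Slc25a42, a coenzyme A carrier, was lower in WM, with 1.21, 3.35 and 10.2 CPM (lowest, median and highest), against 4.36, 10.2 and 26.8 CPM in Sham (-1.40 ± 0.38, adjusted p = 0.00624). In RYGB it had 3.98, 7.96 and 11.4 CPM (-0.63 ± 0.37, adjusted p = 0.232). The difference of RYGB from WM, 0.77 ± 0.38, did not pass adjustment (edgeR adjusted p = 0.462).

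Slc25a51, the mitochondrial NAD carrier, had a lowest, median and highest value of 32.9, 42.5 and 78.9 CPM in RYGB, 23.5, 48.1 and 65.6 CPM in WM and 43.3, 57.2 and 162 CPM in Sham. Its call in RYGB (-0.73 ± 0.25, adjusted p = 0.0342) rests on few libraries, since 162 CPM belongs to Sham 17. Without Sham 17 it was -0.45 (adjusted p = 0.161), without all 3 libraries with acinar transcripts -0.42 (adjusted p = 0.257), and without any 1 of Sham 14, Sham 23, RYGB 11, RYGB 18, RYGB 22, RYGB 28 and RYGB 29 the call was lost too, with adjusted p of 0.0521 to 0.0647. The length and GC correction also ended it (-0.62, adjusted p = 0.0598). In WM the value was -0.63 ± 0.25 (adjusted p = 0.0557). There Slc25a51 was called lower by DESeq2, with library totals and without any 1 of Sham 2, 3, 5 and 6, WM 27 and RYGB 10.

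Slc25a26, which carries S-adenosylmethionine, had 3.10, 7.97 and 10.6 CPM in WM (lowest, median and highest), against 2.64, 4.84 and 7.21 CPM in Sham (0.68 ± 0.25, adjusted p = 0.0397). Leaving out 1 library ended the call of Slc25a26 for 9 libraries, Sham 6, 16, 17 and 23 and WM 1, 7, 13, 27 and 30 (0.60 to 0.68, adjusted p = 0.0544 to 0.0843). Without the 3 libraries with acinar transcripts Slc25a26 was at 0.59 (adjusted p = 0.0893), and with the length and GC correction at 0.49 (adjusted p = 0.136). In RYGB the value of Slc25a26 was 0.19 ± 0.25 (adjusted p = 0.634). Slc25a17, a carrier of the same family in peroxisomes, averaged 38.1 ± 5.08 CPM in RYGB, 28.4 ± 8.12 CPM in WM and 29.1 ± 4.53 CPM in Sham and was not called (0.39 ± 0.16 in RYGB against Sham, adjusted p = 0.0839). Slc25a17 was called higher in RYGB with the compared groups alone (0.40, adjusted p = 0.029), without Sham 14 (0.46, adjusted p = 0.0466) and without WM 25 (0.39, adjusted p = 0.0372).

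**Figure D3:**
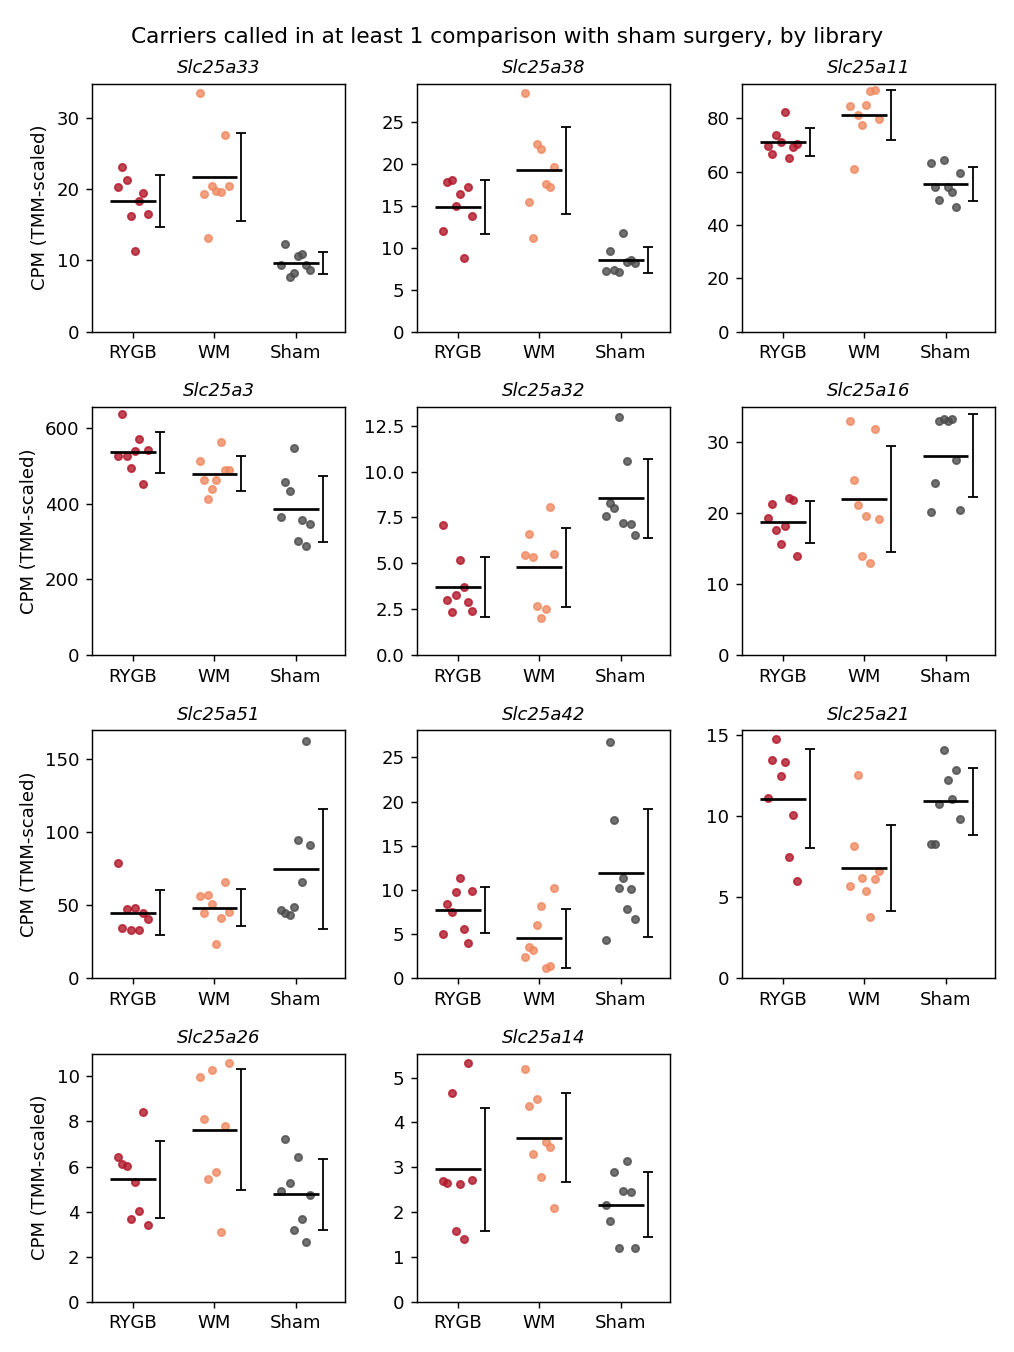
CPM in each library of 11 of the carriers called in at least 1 comparison with Sham, for RYGB, WM and Sham from left to right; horizontal lines are means and bars beside them 1 SD of 8 libraries. In Slc25a33 and Slc25a38 the RYGB and WM libraries lie mostly above Sham, in Slc25a32 mostly below.

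Among 9 tested amino acid carriers Slc25a38 was higher in RYGB and in WM and none was lower. All tested genes had shares of 12.7% higher and 11% lower in RYGB, and 16.5% and 15% in WM. Slc25a38 had a lowest, median and highest value of 8.77, 15.7 and 18.0 CPM in RYGB, 11.2, 18.6 and 28.4 CPM in WM and 7.12, 8.21 and 11.7 CPM in Sham. All RYGB and WM libraries were above the Sham median, and RYGB 22 and WM 9 lay below the highest Sham library. Adjusted p was 0.00175 in RYGB and 1.77e-05 in WM, a fold of 1.75 and 2.26 over Sham. With library totals the RYGB call was lost (0.45, adjusted p = 0.0536). Erythroid markers, whose cells also use this carrier, summed to medians of 4030 CPM in RYGB (2807 to 5662), 3634 CPM in WM (1407 to 9956) and 1435 CPM in Sham (748 to 2411) over 7 of 10 genes, none of them at 0, and their part in this result was not tested.

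The abundant amino acid carriers of the liver did not pass. Slc25a13, the aspartate-glutamate exchanger of the malate-aspartate shuttle and the urea cycle, had 234, 299 and 429.8 CPM in RYGB (lowest, median and highest), 214, 292 and 429 CPM in WM and 261, 317 and 344 CPM in Sham (0.01 ± 0.15, adjusted p = 0.979, and 0.03 ± 0.15, adjusted p = 0.912). Slc25a15, which exchanges ornithine for citrulline, had 165, 255 and 418 CPM in RYGB, 124, 227 and 309 CPM in WM and 127, 203 and 329.7 CPM in Sham (0.31 ± 0.21, adjusted p = 0.312, and 0.05 ± 0.21, adjusted p = 0.873). The groups overlap for both. Slc25a22, a glutamate carrier, was at -0.36 ± 0.31 in RYGB (adjusted p = 0.412) and -0.77 ± 0.31 in WM (adjusted p = 0.0577). In WM Slc25a22 was called lower by DESeq2, with library totals and without any 1 of Sham 2, Sham 6, WM 13 and WM 30. Slc25a44, a carrier of branched-chain amino acids, was at -0.45 ± 0.20 (adjusted p = 0.106) and -0.31 ± 0.20 (adjusted p = 0.255), and was called lower in RYGB without the 3 libraries with acinar transcripts (-0.66, adjusted p = 0.0383). With library totals and with the length and GC correction Slc25a44 was called lower in RYGB and WM, and without WM 25 in WM. Slc25a12, Slc25a29, Slc25a45 and Slc25a48 lay between -0.09 and 0.48 in RYGB and between 0.02 and 0.53 in WM. Without the 3 libraries with acinar transcripts Slc25a48 was called higher in WM (0.69, adjusted p = 0.0317).

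Of the 4 carriers of di-, tri- and oxocarboxylates, Slc25a11 was higher in RYGB and WM and Slc25a21 lower in WM. The shares over all tested genes were 12.7% higher and 11% lower in RYGB, and 16.5% and 15% in WM. Slc25a11 had a lowest, median and highest value of 64.9, 70.1 and 82.2 CPM in RYGB, 61.1, 82.8 and 90.8 CPM in WM and 46.7, 54.2 and 64.3 CPM in Sham. Every RYGB library lay above every Sham library, which 3.28% of tested genes showed, and 7 of 8 WM libraries did so, all but WM 7. Adjusted p was 0.0281 in RYGB and 0.000781 in WM. The RYGB call was lost without Sham 5, Sham 16, Sham 17 or RYGB 19 (0.32 to 0.34, adjusted p = 0.0546 to 0.0609) and without all 3 libraries with acinar transcripts (0.29, adjusted p = 0.153), and after the length and GC correction both calls were lost (0.08 and 0.24, adjusted p = 0.69 and 0.168). In GENCODE M21 an exon of Slc25a11 overlaps Rnf167 on the other strand, and the strand setting of the counting is not given, so part of its reads is uncertain. Of the other members named here, Slc25a10, Slc25a21, Slc25a23, Slc25a25, Slc25a26, Slc25a33, Slc25a35, Slc25a37 and Slc25a46 have exons that overlap a gene on the other strand too. Exons of Slc25a47 and Slc25a51 overlap a gene on the same strand. Rnf167 itself was at 0.03 in RYGB (adjusted p = 0.934) and 0.42 in WM (adjusted p = 0.117).

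Slc25a21, which carries oxoadipate and oxoglutarate, had 6.00, 11.8 and 14.7 CPM in RYGB (lowest, median and highest), 3.78, 6.14 and 12.5 CPM in WM and 8.24, 10.9 and 14.0 CPM in Sham. Of 8 WM libraries 7 were below every Sham library, the exception being WM 9 (-0.67 ± 0.22 against Sham, adjusted p = 0.0174), while RYGB was at 0.02 ± 0.21 (adjusted p = 0.953). Without WM 25 and the 3 libraries with acinar transcripts the WM call was lost (-0.55, adjusted p = 0.0651). The RYGB value was above WM by 0.70 ± 0.22 (edgeR adjusted p = 0.113). Slc25a10, the dicarboxylate carrier, had 36.4, 47.5 and 174 CPM in RYGB, 25.4, 51.8 and 152 CPM in WM and 32.8, 118 and 243 CPM in Sham (-0.68 ± 0.39, adjusted p = 0.21, and -0.99 ± 0.39, adjusted p = 0.0511). Without the 3 libraries with acinar transcripts it was called lower in both (-1.31, adjusted p = 0.022, and -1.09, adjusted p = 0.0245). With library totals and with the length and GC correction Slc25a10 was called lower in both as well. In WM it was also called lower with the filter of 1 CPM in 8 libraries and with the compared groups alone. The same held in WM without any 1 of Sham 2, 6 and 17, WM 25 and RYGB 11, 15 and 18. Slc25a1, which exports citrate for fatty acid synthesis, had 77.4, 94.1 and 181 CPM in RYGB, 54.6, 114 and 214 CPM in WM and 42.6, 109 and 186 CPM in Sham (0.04 ± 0.27 and 0.05 ± 0.27, adjusted p = 0.934 and 0.902).

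Among the carriers that supply ATP synthesis, Slc25a3, the phosphate carrier, was higher in RYGB. It had a lowest, median and highest value of 451, 533 and 639 CPM in RYGB, 412, 477 and 563 CPM in WM and 287, 361 and 547 CPM in Sham. All RYGB and WM libraries were above the Sham median, and the groups overlap (0.47 ± 0.14, adjusted p = 0.0135, in RYGB and 0.31 ± 0.14, adjusted p = 0.0886, in WM). The RYGB call was lost with library totals (0.15, adjusted p = 0.41) and without the 3 libraries with acinar transcripts (0.44, adjusted p = 0.0543). In WM Slc25a3 was called higher with the length and GC correction and without Sham 6. Slc25a5, the ADP/ATP exchanger with the most transcripts here, had 136, 164 and 264 CPM in RYGB, 91.8, 154 and 274 CPM in WM and 124, 184 and 221 CPM in Sham (0.04 ± 0.19 and -0.10 ± 0.19, adjusted p = 0.895 and 0.736), and reads of its processed pseudogenes may be counted with it. Slc25a4, the exchanger of heart and muscle, had 6.05, 7.69 and 13.8 CPM in RYGB, 3.33, 6.45 and 12.5 CPM in WM and 4.53, 6.46 and 13.7 CPM in Sham (0.25 ± 0.28 and 0.01 ± 0.28, adjusted p = 0.555 and 0.987). Slc25a25, an ATP-Mg/phosphate carrier, had 17.5, 33.9 and 56.1 CPM in RYGB, 14.5, 31.1 and 65.8 CPM in WM and 28.0, 36.4 and 47.4 CPM in Sham and was not called (adjusted p = 0.988 and 0.7). Slc25a23 and Slc25a24, of the same calcium-regulated kind, were at 0.05 and -0.48 in RYGB and -0.18 and -0.01 in WM, none called.

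Slc25a20, which carries acylcarnitines into the matrix for fatty acid oxidation, had 114, 135 and 157 CPM in RYGB (lowest, median and highest), 125, 156 and 172 CPM in WM and 113, 132 and 153 CPM in Sham. It stood at 0.02 ± 0.12 in RYGB (adjusted p = 0.92) and 0.20 ± 0.12 in WM (adjusted p = 0.207), with overlapping groups.

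None of the 4 iron and glutathione carriers was called. Slc25a39, a glutathione carrier, had 264, 383 and 706 CPM in RYGB, 191, 409 and 974 CPM in WM and 194, 471 and 669 CPM in Sham (-0.06 ± 0.28 and -0.02 ± 0.28, adjusted p = 0.9 and 0.964). Slc25a37, the iron carrier mitoferrin-1, had 24.4, 32.0 and 40.2 CPM in RYGB, 21.4, 28.1 and 51.7 CPM in WM and 23.1, 44.7 and 48.2 CPM in Sham (-0.34 ± 0.19 and -0.32 ± 0.19, adjusted p = 0.193 and 0.203). All RYGB libraries lay below the Sham median. Slc25a28, mitoferrin-2, averaged 11.8 ± 2.94 CPM in RYGB, 17.5 ± 7.68 CPM in WM and 12.4 ± 4.37 CPM in Sham, and Slc25a40 averaged 2.15 ± 0.557, 2.14 ± 1.24 and 2.95 ± 1.90 CPM in the same groups. In WM against Sham Slc25a28 was at 0.49 ± 0.25 (edgeR adjusted p = 0.139) and was called higher without WM 9.

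In the last group, Slc25a47, a carrier made mainly in hepatocytes, had 210.3, 511 and 961 CPM in RYGB, 367, 690.1 and 996 CPM in WM and 528, 719 and 1068 CPM in Sham. It stood at -0.56 ± 0.26 in RYGB (adjusted p = 0.121), with 7 of 8 libraries below the Sham median, and -0.17 ± 0.26 in WM (adjusted p = 0.654). Without RYGB 19 it was called lower in RYGB (-0.75, adjusted p = 0.0336), as it was without all 3 libraries with acinar transcripts (-0.83, adjusted p = 0.0393). Library totals and the length and GC correction also gave Slc25a47 a lower call in RYGB. Slc25a14, an uncoupling-protein-like carrier, had 2.09, 3.51 and 5.19 CPM in WM, against 1.19, 2.30 and 3.15 CPM in Sham (0.75 ± 0.29, adjusted p = 0.0444). That call was lost without any 1 of 11 libraries, Sham 2, 3, 6, 14 and 23, WM 1, 7, 13, 25 and 27 and RYGB 29 (0.66 to 0.78, adjusted p = 0.0504 to 0.0906), without all 3 libraries with acinar transcripts (0.78, adjusted p = 0.0534) and with the length and GC correction (0.57, adjusted p = 0.106). Slc25a46, which sits in the outer membrane and acts in fission and fusion of mitochondria, averaged 39.3 ± 18.0 CPM in RYGB, 25.3 ± 17.8 CPM in WM and 35.0 ± 10.1 CPM in Sham. In WM against Sham Slc25a46 was at -0.46 ± 0.31 (edgeR adjusted p = 0.268) and was called lower without WM 9. Slc25a34 and Slc25a53 were not called.

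Between RYGB and WM no member passed. edgeR called 0 higher and 0 lower of 38, where 1.06% of all tested genes were higher and 0.434% lower, and 4 members had an unadjusted p under 0.05, Slc25a17, Slc25a21, Slc25a28 and Slc25a38. DESeq2 also called 0. Slc25a21 was called with the length and GC correction (0.71, adjusted p = 0.0329) and without WM 9 (0.89, adjusted p = 0.0154). The nearest by p, Slc25a21 and Slc25a17 (0.42 ± 0.16, adjusted p = 0.273), stood higher in RYGB, and Slc25a28 (-0.57 ± 0.26, adjusted p = 0.38) and Slc25a38 (-0.37 ± 0.18, adjusted p = 0.449) lower. These differences test where the effects of RYGB and WM differ, and a p that misses the threshold does not show that the treatments act alike.

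Genes of carrier import are given beside the carriers. Of 13 such genes 5 were higher and 0 lower in RYGB, and 6 were higher and 1 lower in WM, with a median log2 fold change of 0.31 and 0.42, where 12.7% of all tested genes were higher and 11% lower in RYGB and 16.5% and 15% in WM. Timm8b, Timm9, Timm10 and Timm10b, of the small TIM family, stood at 1.27 ± 0.21, 1.31 ± 0.22, 0.63 ± 0.16 and 0.83 ± 0.18 in RYGB (adjusted p = 5.59e-05, 6.54e-05, 0.00525 and 0.00148) and at 1.11 ± 0.21, 1.05 ± 0.22, 0.89 ± 0.16 and 1.07 ± 0.18 in WM. Tomm22, a receptor of the outer membrane, had 53.7 ± 12.9 CPM in RYGB, 70.6 ± 17.1 CPM in WM and 29.0 ± 4.43 CPM in Sham (0.89 ± 0.17 and 1.28 ± 0.17). In WM Timm29 of the TIM22 complex was also higher (0.44 ± 0.15, adjusted p = 0.0236) and Agk, a kinase in that complex, lower (-1.42 ± 0.46, adjusted p = 0.0183). With library totals 4 were higher and 2 lower in RYGB, with a median of -0.02, and 5 were higher and 2 lower in WM. After the length and GC correction 5 were higher in RYGB and 4 in WM, and Timm10 in RYGB (0.08, adjusted p = 0.72) and Timm8b, Timm10 and Timm29 in WM (0.39, 0.21 and 0.36, adjusted p = 0.0773, 0.257 and 0.0783) lost their calls. Timm10 in RYGB (0.27, adjusted p = 0.224) and Timm29 in WM (0.13, adjusted p = 0.585) also lost theirs with library totals. Without the 3 libraries with acinar transcripts Timm10 in RYGB was at 0.46 (adjusted p = 0.0659), and without these and WM 25 Agk in WM was at -1.18 (adjusted p = 0.0682).

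Family members under other symbols are Mtch1 and Mtch2, of the outer membrane, and the uncoupling protein Ucp2. Mtch2 averaged 240.04 ± 51.4 CPM in RYGB, 235 ± 42.8 CPM in WM and 128 ± 16.8 CPM in Sham (0.90 ± 0.15 and 0.87 ± 0.15, adjusted p = 7.95e-05 and 7.33e-05). Mtch1 was at 0.57 ± 0.20 (adjusted p = 0.0357) and 0.84 ± 0.20 (adjusted p = 0.00205), and its RYGB call was lost with library totals (0.22, adjusted p = 0.359), without the 3 libraries with acinar transcripts (0.42, adjusted p = 0.203) and without any 1 of Sham 2, 6, 14, 16 and 17 and RYGB 18, 19 and 29 (0.49 to 0.58, adjusted p = 0.0515 to 0.0795). Ucp2, which in liver is mainly a transcript of macrophages, was at -1.19 ± 0.50 in RYGB (adjusted p = 0.0796) and -1.49 ± 0.50 in WM (adjusted p = 0.0242). In RYGB Ucp2 was called lower by DESeq2 (-1.20, adjusted p = 0.0464), with the compared groups alone (-1.17, adjusted p = 0.0456), with library totals (-1.49, adjusted p = 0.0171), without Sham 2 (-1.35, adjusted p = 0.0427) and without the 3 libraries with acinar transcripts (-1.73, adjusted p = 0.0287). Its WM call was lost without Sham 3, Sham 5 or Sham 23 (-1.24 to -1.36, adjusted p = 0.0508 to 0.0618). Recruited macrophage markers summed to medians of 52.4 CPM in RYGB (34.5 to 79.3), 40.8 CPM in WM (20.2 to 61.6) and 99.7 CPM in Sham (62.1 to 248) over 10 of 10 genes, and Kupffer cell markers to 275, 272 and 92.6 CPM in the same groups. Their part in the Ucp2 value was not tested.

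**Figure D4:**
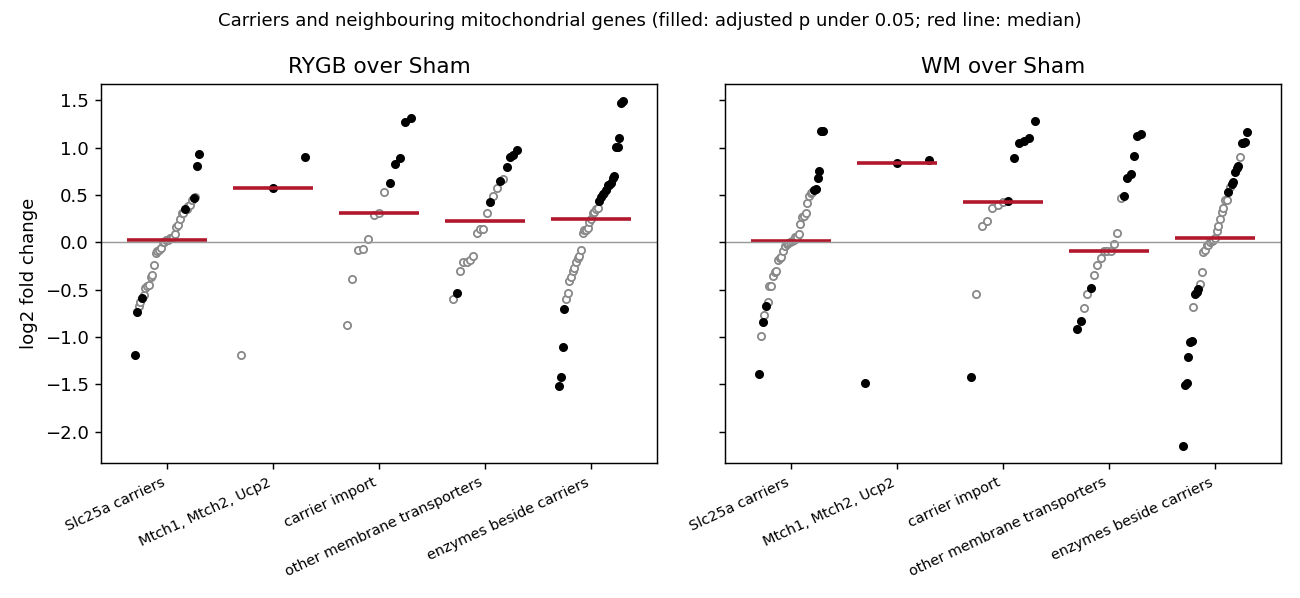
Log2 fold changes of the 38 tested Slc25 members and of 4 lists of mitochondrial genes in RYGB over Sham (left) and WM over Sham (right); filled points have an adjusted p under 0.05 and red lines are medians. The carriers have medians of 0.02 and 0.01, and the import genes 0.31 and 0.42.

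Of 20 other mitochondrial transporters 6 were higher and 1 lower in RYGB, and 6 were higher and 3 lower in WM, beside 12.7% and 11% of all tested genes in RYGB and 16.5% and 15% in WM. These counts changed to 4 higher and 4 lower in RYGB and 3 higher and 8 lower in WM with library totals, and to 5 and 0 in RYGB and 7 and 2 in WM without the 3 libraries with acinar transcripts. Vdac2, a channel of the outer membrane, rose by 0.92 ± 0.15 in RYGB and 1.14 ± 0.15 in WM (adjusted p = 5.98e-05 and 2.23e-06). Smdt1, a subunit of the calcium uniporter, was at 0.79 ± 0.16 and 0.91 ± 0.16, and Abcb10, a transporter of the inner membrane, at 0.64 ± 0.14 and 0.68 ± 0.14. Smdt1 lost both calls after the length and GC correction (0.25 and 0.23, adjusted p = 0.108 and 0.131), and Abcb10 lost both with library totals (0.29 and 0.35, adjusted p = 0.239 and 0.137). Mpc2, a subunit of the pyruvate carrier, was at 0.91 ± 0.18 in RYGB and 0.72 ± 0.18 in WM (adjusted p = 0.000381 and 0.00232). The other subunit, Mpc1, stood at -0.60 ± 0.26 in RYGB (edgeR adjusted p = 0.088) and was called lower in WM (-0.83 ± 0.26, adjusted p = 0.0151). Micu2, also of the calcium uniporter, stood at -0.30 ± 0.20 in RYGB (adjusted p = 0.283) and was called lower in WM (-0.92 ± 0.20, adjusted p = 0.000886). Vdac3 was at 0.98 ± 0.24 in RYGB and 1.12 ± 0.24 in WM (adjusted p = 0.00323 and 0.000625).

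Of 39 enzymes that make or use what the carriers move, 14 were higher and 4 lower in RYGB and 10 were higher and 9 lower in WM, beside 12.7% and 11% of all tested genes in RYGB and 16.5% and 15% in WM. With library totals the counts were 5 higher and 11 lower in RYGB and 4 higher and 12 lower in WM. They were 8 higher and 4 lower in RYGB and 9 higher and 9 lower in WM without the 3 libraries with acinar transcripts. Cps1, the first enzyme of the urea cycle, averaged 1082 ± 148 CPM in RYGB, 808 ± 271 CPM in WM and 389.5 ± 174 CPM in Sham (1.47 ± 0.22 and 1.05 ± 0.22, adjusted p = 1.93e-05 and 0.000567), beside the ornithine and aspartate carriers given above, which were not called. Oat, ornithine aminotransferase, was at 1.49 ± 0.25 in RYGB and 0.74 ± 0.25 in WM (adjusted p = 9.03e-05 and 0.0246). Gclc, which makes the first intermediate of glutathione, averaged 329.5 ± 68.3 CPM in RYGB, 212 ± 39.9 CPM in WM and 940.6 ± 304 CPM in Sham (-1.51 ± 0.20 and -2.15 ± 0.20, adjusted p = 3.59e-06 and 1.7e-08), while its neighbour in glutathione transport, Slc25a39, stood at -0.06 and -0.02. Me1, the cytosolic malic enzyme, was at -1.43 ± 0.21 and -1.51 ± 0.21 (adjusted p = 1.3e-05 and 3.48e-06). Crat, which makes acetylcarnitine, was at -0.70 ± 0.21 in RYGB and -1.49 ± 0.21 in WM (adjusted p = 0.0148 and 6.38e-06). Gpx1, a glutathione peroxidase, was at 1.01 ± 0.21 in RYGB and 1.17 ± 0.21 in WM (adjusted p = 0.000782 and 0.000106). In RYGB against WM no gene of these 4 lists was called by edgeR, where DESeq2 called 1 enzyme and 1 transporter.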

How the data were processed

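Liver RNA of 24 samples was read from 3′ ends, 8 libraries per group, and groups come from the sample titles. The authors deposited 2 tables of 14995 genes. One holds raw whole-number counts per Ensembl gene, with a smallest mean count of 3. The other deposited table holds a normalized signal, and dividing raw counts by recomputed median-of-ratios factors gave it to a relative difference of 5e-15. Per the submitters' processing notes, DESeq2 1.34 and R 4.1.2 were used. The sources used here give no aligner, counting program, build or strand setting.

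The count model was edgeR 4.0.16 in R 4.3.3. Genes passing filterByExpr (13121) were scaled by TMM, which assumes that most genes do not change, and a quasi-likelihood model without covariates was fitted to all 24 libraries (common BCV 0.398, with 7.91 prior degrees of freedom). The 3 group differences had Benjamini-Hochberg adjustment across these genes, with a threshold of 0.05. Chi-square per degree of freedom between libraries of 1 group was 24.9 to 540.2, far above sampling noise, which leaves no duplicate. Titles number the samples, and nothing else says that they are separate animals, so p-values measure the spread between these samples, which may be technical. The procedure was tested on simulated data. Of 1.5-fold changes 15.7% were recovered in RYGB against Sham, 4.17% in WM against Sham and 4.62% in RYGB against WM. Of 2-fold changes 43.5%, 45% and 43.8% were recovered, and of 4-fold changes 88.2%, 88.2% and 83.1%. False calls were 4.85%, 4.26% and 4.26% of the calls. A member that was not called may still differ. Alternatives were DESeq2 1.42.0, RLE scaling, library totals, no low-count filter, 1 CPM in 8 libraries, the compared groups alone, limma-trend (limma 3.58.1) on log2 of the normalized signal plus 1, a length and GC correction (mgcv 1.9.3), libraries with over 100 CPM of acinar markers left out, and each library left out. Leaving those out without counting Cela1, alone or with WM 25, was chosen after seeing the data.

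All 43 members matched GENCODE M21 (GRCm38) by Ensembl ID, which gave overlaps and lengths. Members, lists and the rule for named genes were chosen with earlier results of these data known. Values of all libraries are given for the 8 called members of each comparison with the smallest p and for 13 carriers fixed by name. Counts over the family include 1 member that is not reported by name here. Of the 2 short lists every called gene is named, of the 2 longer ones the 4 with the smallest p per comparison. Mpc1 and Micu2 are given in addition, beside Mpc2 and Smdt1.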

Additional observations from a re-analysis of the deposited data

Results flagged for a closer look

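In 63 groups of 8 libraries (21 members given by library), 6 single libraries stood apart from the other 7 of their group by more than Dixon's critical value, and chance flags about 1 in 20 groups. Slc25a51 stood at 78.9 CPM in RYGB 10 (next 47.9 CPM) and at 162 CPM in Sham 17 (next 94.6 CPM), and Sham 17 also held acinar transcripts. WM 25 had 152 CPM of Slc25a10 (next 69.1 CPM) and 974 CPM of Slc25a39 (next 520.4 CPM). Slc25a11 stood at 61.1 CPM in WM 7 (next 77.6 CPM), the only WM library inside the Sham range. Slc25a4 stood at 13.7 CPM in Sham 2 (next 8.88 CPM). Their causes were not tested.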

How the results depend on the processing

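With library totals the members higher and lower were 1 and 8 in RYGB and 2 and 9 in WM against Sham, in place of 4 and 3 and of 6 and 3, and that scaling moves the median of all genes down. The length and GC correction gave 5 lower in RYGB against Sham and 1 higher in RYGB against WM, where the count was 0, and DESeq2 gave 5 lower in WM, and the cause was not tested. The rule on acinar markers with Cela1 counted gave 2 higher and 5 lower in RYGB, and 0 and 0 in WM, where it left 1 library, since Cela1 itself was over 100 CPM in the other 7 WM libraries and was higher in WM than in Sham (log2 fold change 2.29, edgeR adjusted p = 0.00238). Without counting Cela1, 2 members were higher in RYGB. With 1 library left out the counts ran from 3 to 5 higher and 2 to 4 lower in RYGB, from 3 to 7 higher and 3 to 6 lower in WM, and from 0 to 1 higher and 0 to 0 lower in RYGB against WM. The lowest WM count of higher members was without WM 1, and the highest counts of lower members, 6 and 5, came without Sham 2, and without Sham 6 or WM 25. Slc25a33 and Slc25a32 in RYGB kept their calls in all 11 other settings and 24 left-out libraries. Among 96 uncalled results, 62 of 3360 alternative values were called and 243 differed in sign, uncalled. No paired analysis was possible because the groups share no replicate numbers. Carriers of a few CPM rest on few counts, Slc25a32 on 29 to 198 per library.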
